A study of Mus musculus with 1989 samples.

Results

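Open chromatin was compared between 96 CD4 and 91 CD8 sorted thymocytes profiled by scATAC-seq, a single-cell assay in which a transposase cuts DNA that is not packed by nucleosomes. These 187 cells are those CD4 and CD8 sorted cells with a total of at least 1000 counts, of 1988 cells profiled by scATAC-seq in all. Left out were 23 CD4 cells, the deepest with a total of 988, and 25 CD8 cells, the deepest with 973, whereas the shallowest cells used had totals of 1003 and 1005. All cells came from the thymus of male C57BL/6 mice, given as 7 weeks old, with no treatment or altered gene, and were sorted as CD4+ or CD8+ T cells. DP and DN sorted cells, with both coreceptors or neither on their surface, are given beside them where they bear on a result. No animal is named for any cell. Each sort therefore counts as 1 sample, no test between the sorts was possible, and all intervals are exact 95% intervals that cover counting error only.

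CD4 and CD8 are the coreceptors with which the T cell receptor reads MHC class II and class I molecules. Double-positive thymocytes carry both, and cells that pass positive selection keep one and silence the gene of the other. Zbtb7b, which encodes ThPOK, drives the CD4 lineage and restrains CD8 genes. Runx3 drives the CD8 lineage and silences Cd4 and Zbtb7b. Both act on enhancers and silencers near the coreceptor genes, which is why accessibility there was examined first.

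The central bases of 8 peaks of the results below are shown first. They were picked after the values had been seen and all hold a motif match, which 10 of the 30 peaks named below by rule lack. Each is given as 300 bases of the plus strand of GRCm38, with the consensus letters of transcription factor families, on either strand, in capitals. 3 lie at lineage genes and were open more often in CD8 sorted cells. They are chr6:71369435-71369734 upstream of Cd8a, chr6:71341232-71341531 downstream of Cd8b1 and chr4:135098515-135098814 upstream of Runx3. Each holds the Runx letters TGTGGT or their reverse complement, and the Cd8b1 peak also holds the E-box letters CAGCTG.
Cd8a upstream: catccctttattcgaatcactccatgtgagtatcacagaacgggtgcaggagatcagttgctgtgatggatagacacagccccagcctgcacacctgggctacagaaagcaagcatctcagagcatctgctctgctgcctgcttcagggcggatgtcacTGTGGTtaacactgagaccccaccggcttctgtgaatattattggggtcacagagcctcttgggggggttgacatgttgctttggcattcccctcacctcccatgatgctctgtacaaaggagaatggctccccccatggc
Cd8b1 downstream: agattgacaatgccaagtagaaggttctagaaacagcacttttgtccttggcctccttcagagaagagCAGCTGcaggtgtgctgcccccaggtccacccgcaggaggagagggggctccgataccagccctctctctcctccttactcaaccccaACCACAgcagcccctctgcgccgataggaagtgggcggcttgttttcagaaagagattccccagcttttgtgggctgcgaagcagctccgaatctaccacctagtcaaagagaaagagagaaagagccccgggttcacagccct
Runx3 upstream: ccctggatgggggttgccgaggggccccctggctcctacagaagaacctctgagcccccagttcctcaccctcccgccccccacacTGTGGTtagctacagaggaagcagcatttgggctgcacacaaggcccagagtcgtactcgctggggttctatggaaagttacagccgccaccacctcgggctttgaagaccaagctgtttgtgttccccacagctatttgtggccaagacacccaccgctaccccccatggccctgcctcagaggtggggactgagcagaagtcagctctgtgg
A further 2 are among the peaks with the largest difference in favor of CD8 sorted cells, chr3:127868224-127868523 between genes nearest to Fam241a, with 3 Runx matches, and chr1:189830940-189831239 in an intron of Ptpn14, with an E-box match and the Tcf/Lef letters CTTTGAT.
Fam241a: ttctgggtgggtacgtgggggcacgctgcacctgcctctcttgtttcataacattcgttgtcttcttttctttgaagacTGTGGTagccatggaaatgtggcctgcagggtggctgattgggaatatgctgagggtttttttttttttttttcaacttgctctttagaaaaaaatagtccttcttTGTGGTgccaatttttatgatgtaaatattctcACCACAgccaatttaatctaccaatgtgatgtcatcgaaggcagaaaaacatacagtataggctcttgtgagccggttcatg
Ptpn14: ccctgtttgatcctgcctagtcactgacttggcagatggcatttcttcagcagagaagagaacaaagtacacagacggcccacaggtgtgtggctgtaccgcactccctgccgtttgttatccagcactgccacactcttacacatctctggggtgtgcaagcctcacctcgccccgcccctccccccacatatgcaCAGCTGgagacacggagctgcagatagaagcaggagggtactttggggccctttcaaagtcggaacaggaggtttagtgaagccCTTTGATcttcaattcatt
The last 3 are among the peaks with the largest difference in favor of CD4 sorted cells. They are chr2:6622120-6622419 in an exon of Celf2, and the introns chr4:150517425-150517724 of Rere and chr11:108272933-108273232 of Prkca, which hold the only matches of the Gata letters AGATAA among the 15 peaks named below in that direction. The Celf2 peak holds a Tcf/Lef match, and the Rere and Prkca peaks also hold a Runx match and that of Rere a T-box match.
Celf2: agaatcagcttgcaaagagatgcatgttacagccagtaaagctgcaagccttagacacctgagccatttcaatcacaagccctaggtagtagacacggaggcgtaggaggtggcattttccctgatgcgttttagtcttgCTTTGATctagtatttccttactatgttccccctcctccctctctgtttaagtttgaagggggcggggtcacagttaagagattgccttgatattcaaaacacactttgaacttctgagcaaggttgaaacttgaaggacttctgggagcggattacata
Rere: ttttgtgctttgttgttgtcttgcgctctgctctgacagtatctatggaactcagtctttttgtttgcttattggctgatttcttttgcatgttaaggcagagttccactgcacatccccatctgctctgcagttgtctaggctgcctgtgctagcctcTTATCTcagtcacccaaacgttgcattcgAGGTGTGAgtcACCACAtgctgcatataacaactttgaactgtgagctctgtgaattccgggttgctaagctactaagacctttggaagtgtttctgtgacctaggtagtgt
Prkca: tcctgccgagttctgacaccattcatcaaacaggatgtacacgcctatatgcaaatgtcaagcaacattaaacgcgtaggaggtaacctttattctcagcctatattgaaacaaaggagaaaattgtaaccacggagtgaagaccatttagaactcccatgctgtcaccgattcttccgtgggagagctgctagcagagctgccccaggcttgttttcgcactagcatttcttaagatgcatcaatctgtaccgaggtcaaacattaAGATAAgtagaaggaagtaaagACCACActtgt

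The cells fell into 2 series by their label numbers, which differed in depth. In labels from 4000 on, 55 CD4 cells had a median total of 7217 counts and 77 CD8 cells one of 5774. In labels from 31000, 41 CD4 cells had a median of 1543 and 14 CD8 cells one of 1519, so that the second series held 45612 of 271644 open calls of the CD4 sort but only 13427 of 241952 of the CD8 sort. An open call is 1 cell with at least 1 count in a peak, counted over 62519 peaks that do not overlap. No label number was shared by the sorts. Of the 116 DP and 175 DN cells, 31 and 122 had label numbers outside these 2 series. They are included in the DP and DN values at the loci and named peaks below. In the second series, 4 CD4 cells and 1 CD8 cell stood apart, with a median similarity of open peaks to the other cells below 0.8 of that of cell pairs of like depth. Together with 1 DP and 1 DN cell, they shared open peaks with one another at 2.31 times that level. Peaks of the myeloid and dendritic gene list took 23.4 (13.7 to 37.5) of 10000 open calls in these 5 cells, against 3.65 (2.96 to 4.46) in the other CD4 cells and 4.57 (3.75 to 5.50) in the other CD8 cells. Without them the counts of peaks and genes below were within 1.5 times of those given, as were the ratios of the marker loci, and values without them are given beside the peak set, window and list results of the second series.

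At Zbtb7b (chr3:89377644-89394776, minus strand), the CD4 sort was the more accessible. The peak centered 1.0 kb inside the start of the gene was open in 15 of 96 CD4 cells (15.6%, 9.02 to 24.5) and in 0 of 91 CD8 cells, for which the exact interval reaches 3.97% and a floor of 3 counts stands at 3.30%. Against this floor of 3 counts over the CD8 sort, the peak was 4.45-fold higher in CD4 sorted cells, which is not the lower end of an interval. Of the 15 open CD4 cells 14 were in the first series and 1 in the second. The same peak was open in 1 of 116 DP cells and 8 of 175 DN cells. Of the peaks around it, those centered 0.6 kb inside and 1.1 kb before the start, which overlap it, were open in 7 and 9 CD4 cells and in 1 and 2 CD8 cells. The peaks 5.8 kb inside and 1.7 kb before the start did not separate the sorts, with 9 CD4 and 7 CD8 cells open at each. Any count within 10 kb of the gene was found in 42.7% (32.7 to 53.2) of CD4 cells and 16.5% (9.53 to 25.7) of CD8 cells, and after thinning each cell to 1000 counts in 13.5% (7.41 to 22.0) and 5.49% (1.81 to 12.4). DP cells, where Zbtb7b is known to be silent, gave 12.9% (7.42 to 20.4) at a median total of 3959 counts, and 5.17% (1.92 to 10.9) after thinning, close to the CD8 value. DN cells gave 24.0% (17.9 to 31.0), and 4.57% (1.99 to 8.81) after thinning. The first series alone gave 61.8% (47.7 to 74.6) of CD4, 18.2% (10.3 to 28.6) of CD8 and 40.0% (22.7 to 59.4) of DN cells, and in the second 7 of 41 CD4 cells and 1 of 14 CD8 cells had a count there, or 5 of 37 and 1 of 13 without the cells that stood apart.

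At Runx3 (chr4:135120652-135177990, plus strand), the peaks were mixed. Of those given here, the one with the largest ratio in favor of the CD8 sort lay upstream of the gene. The peak centered 22.0 kb before the start, whose bases are given above, was open in 4 CD4 cells (4.17%, 1.15 to 10.3) and 16 CD8 cells (17.6%, 10.4 to 27.0), a ratio of CD8 over CD4 of 4.49 (1.45 to 18.5) in open calls per 10000. It was open in 4 DP cells (3.45%) and 13 DN cells (7.43%). A second upstream peak, 40.1 kb before the start, was open in 7 CD4 and 15 CD8 cells, a ratio of 2.41 with an interval that reaches from 0.923 to 6.97. At the start itself 16 CD4 and 25 CD8 cells were open, with a ratio of 1.75 (0.900 to 3.52), and inside the gene, at 33.9 kb, 5 and 4 cells were. The order was the reverse at 36.8 kb before the start, where a peak of the overlapping set was open in 7 CD4 and 0 CD8 cells. Summed over the 21 peaks nearest to Runx3, the ratio was 1.60 (1.15 to 2.22), from 66 CD4 and 94 CD8 calls. In the second series the sum rested on 7 CD4 and 2 CD8 calls and gave no direction. Any count in the window was found in 53.1% (42.7 to 63.4) of CD4 and 65.9% (55.3 to 75.5) of CD8 cells, with overlapping intervals, and after thinning in 13.5% (7.41 to 22.0) and 31.9% (22.5 to 42.5). In the first series alone the order was the reverse before thinning, at 76.4% (63.0 to 86.8) of CD4 and 72.7% (61.4 to 82.3) of CD8 cells. DN cells had a count in 66.3% (58.8 to 73.2), or 28.0% (21.5 to 35.3) after thinning, close to the CD8 values, and DP cells in 41.4% (32.3 to 50.9), or 19.0% (12.3 to 27.3). The window of Runx3 was widened upstream after the values had been seen.

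The Cd8b1 and Cd8a genes (chr6:71322788-71337494 and chr6:71373427-71379173, both on the plus strand), which encode the 2 chains of CD8, were more accessible in the CD8 sort at most peaks of the locus. The start of Cd8b1 was open in 14 CD4 and 28 CD8 cells, a ratio of 2.25 (1.14 to 4.62). Upstream of it, a peak 15.0 kb before the Cd8b1 start, nearest to Smyd1, was open in 2 CD4 and 21 CD8 cells, with a ratio of 11.8 (2.88 to 104). Between the 2 genes, the downstream Cd8b1 peak shown above was open in 2 CD4 and 13 CD8 cells, and a peak 19.5 kb before Cd8a in 8 and 18 cells. The peak 3.8 kb before Cd8a, also shown above, was open in 7 CD4 cells (7.29%, 2.98 to 14.4) and 23 CD8 cells (25.3%, 16.7 to 35.5), with a ratio of 3.69 (1.53 to 10.2). At the start of Cd8a 2 CD4 and 18 CD8 cells were open, in a peak that overlaps the one before it as listed. Peaks of the overlapping set 8.0 kb inside Cd8b1 and 3.5 kb inside Cd8a leaned the other way, with 7 and 6 CD4 and 4 and 4 CD8 cells. The peaks higher in CD8 were open in DP cells as well, the one 3.8 kb before Cd8a in 31 of 116 (26.7%) and the one near Smyd1 in 24 (20.7%). After thinning to 1000 counts, any count in the window was found in 21.9% (14.1 to 31.5) of CD4, 53.8% (43.1 to 64.4) of CD8, 67.2% (57.9 to 75.7) of DP and 18.3% (12.9 to 24.8) of DN cells, against 54.2%, 87.9%, 86.2% and 47.4% before thinning. The CD4 and DN values lay close together, and the interval of the CD8 value did not overlap that of the CD4 value. Of the second series, 13 of 41 CD4 cells and 8 of 14 CD8 cells had a count in the window, or 11 of 37 and 7 of 13 without the cells that stood apart. The window was widened upstream of Cd8b1 after the values had been seen.

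At Cd4 (chr6:124864692-124888221, minus strand), both sorts were open. The peak centered 2.1 kb inside the gene was open in 25 CD4 cells (26.0%) and 25 CD8 cells (27.5%), a ratio of 1.12 (0.619 to 2.04). A peak that overlaps it, centered 2.8 kb inside the gene, was open in 24 CD4 and 12 CD8 cells, a ratio of 0.561 (0.256 to 1.17). Further inside, at 8.7 kb, 0 CD4 and 7 CD8 cells were open. Any count in the window was found in 50.0% (39.6 to 60.4) of CD4 and 53.8% (43.1 to 64.4) of CD8 cells. After thinning the order was the reverse, at 19.8% (12.4 to 29.2) and 17.6% (10.4 to 27.0), with overlapping intervals. In the second series 13 of 41 CD4 and 2 of 14 CD8 cells had a count there, or 11 of 37 and 2 of 13 without the cells that stood apart. A difference between the sorts over the Cd4 locus as a whole was not detectable at this depth.

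**Figure D1:**
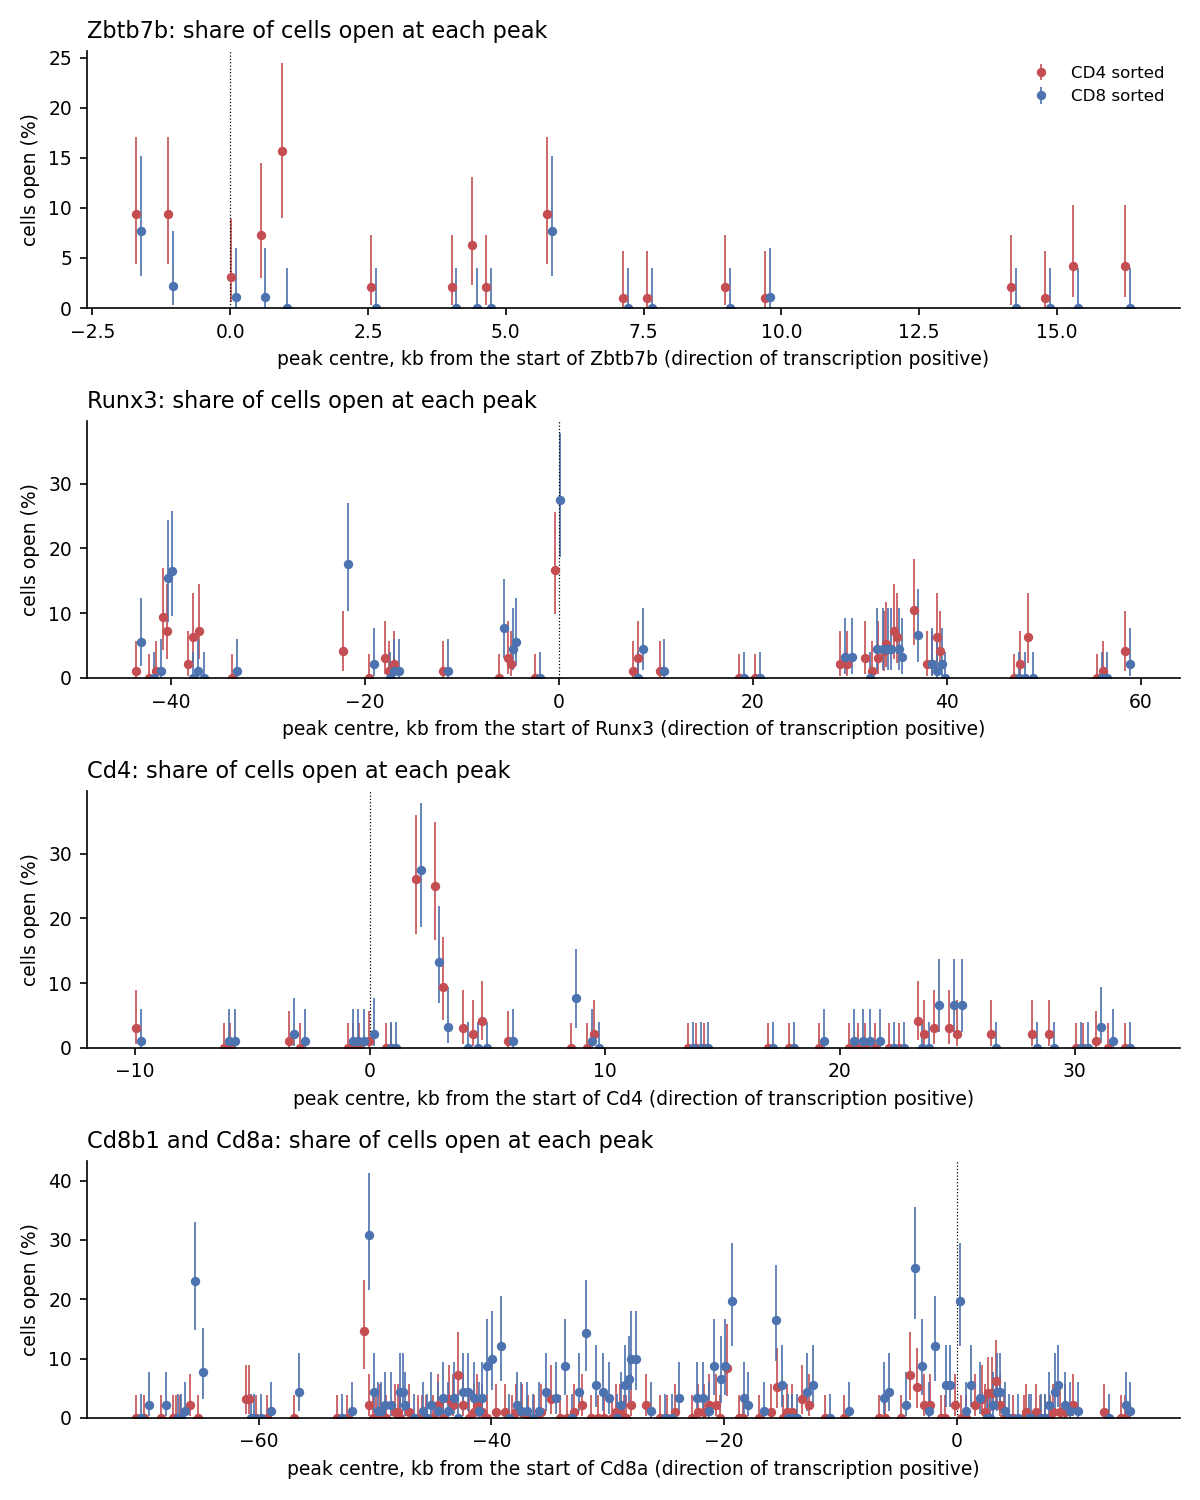
Share of CD4 sorted (red) and CD8 sorted (blue) cells with a count in each peak at 4 loci, in percent, against the distance of the peak center from the start of the gene in kb; all listed peaks are drawn, overlapping ones included, and bars are exact binomial 95% intervals. CD8 points stand above CD4 points at most peaks of the Cd8b1 and Cd8a locus and 22.0 kb before Runx3, whereas at 1.0 kb inside Zbtb7b 15 CD4 cells and 0 CD8 cells are open.

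Across the genome, 8080 peaks were open in at least 20 of the cells of both sorts together. Of these, 571 were at least 2-fold higher in CD8 sorted cells (CD8-high, 7.07%) and 605 at least 2-fold higher in CD4 sorted cells (CD4-high, 7.49%), in open calls per 10000 calls. The median peak had 30 calls. With 20 calls split evenly the interval of the ratio reaches from 0.374 to 2.68, so a 2-fold difference in a single peak is within counting error for most of these peaks, and the calls describe these cells only. Called peaks lay less often within 2 kb of a transcription start than tested peaks did, 46.1% of the CD8-high and 45.0% of the CD4-high peaks against 62.8%. Introns held 24.5% and 27.6% of them against 17.6%, and intergenic sequence 25.6% in each direction against 17.8%.

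**Figure D2:**
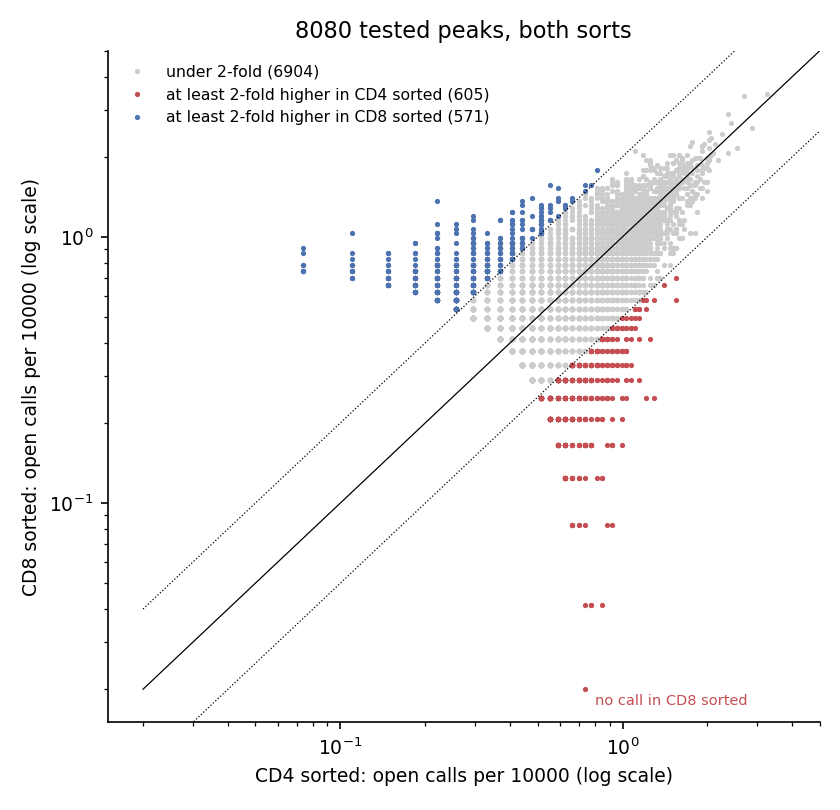
Open calls per 10000 in CD4 sorted (x axis) and CD8 sorted cells (y axis) for the 8080 tested peaks, both on log scales, with the line of equality and dotted lines at 2-fold; the 1 peak without a call in CD8 sorted cells is drawn at the lower edge. Peaks past 2-fold are colored, 605 in favor of CD4 (red) and 571 in favor of CD8 (blue), and most of them have few calls.

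Of the called peaks, 334 in favor of CD8 (4.13% of those tested) and 427 in favor of CD4 (5.28% of those tested) were higher in the same sort in both label series, which together had chosen them, so that these counts are a description only. They make up 58.5% of the CD8-high and 70.6% of the CD4-high peaks. Of all tested peaks, 22.0% were higher in CD8 and 27.5% higher in CD4 in both series. The peaks named next were open in at least 30 cells and higher in the same sort in both label series, and are the 15 with the largest ratio in each direction. Their direction in the second series rests on very few calls. Those in favor of CD8 had 1 to 3 CD8 calls there, and those in favor of CD4 had 1 to 7 CD4 calls. At Smarce1 it was 1 CD4 and 0 CD8 calls. At Dusp10 1 call in each sort counted as higher in CD8, because that sort had fewer calls in all. In favor of CD8, the largest ratio was that of the Fam241a peak shown above, 27915 bp from the nearest start, with 6 CD4 and 33 CD8 cells open, a ratio of 6.18 (2.56 to 18.0). The promoter peak of Cxcr4, the chemokine receptor with which immature thymocytes are held in the cortex, was open in 6 CD4 and 25 CD8 cells, with a ratio of 4.68 (1.87 to 13.9). The same numbers of cells were open at a peak 67288 bp from Dusp10, a phosphatase of stress-activated MAP kinases, and at one 67727 bp from Snrpe, a splicing protein. The intronic peak of Ptpn14, a tyrosine phosphatase, was open in 8 CD4 and 28 CD8 cells, and in DP cells more often than in either sort, at 44.8% against 8.33% and 30.8%. Intronic peaks of Cerk, a ceramide kinase, of Iqch and of Ppm1h, a phosphatase, were open in 8, 6 and 8 CD4 cells and in 29, 24 and 23 CD8 cells. The peak in a UTR of Trib1, a pseudokinase, was open in 7 and 25 cells. Promoter peaks of Zfand1, of Hcls1, an actin regulator of blood cells, of Mcm8, a helicase of DNA repair, and of 0610009B22Rik were open in 7 to 8 CD4 cells and in 23 to 26 CD8 cells. The list is completed by a peak nearest to Os9, with 7 and 27 cells, and by the peak before Cd8a. The 15 peaks were open in 7.76% to 44.8% of DP cells, in at least 9 cells each.

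In favor of CD4, the largest ratio was that of the Celf2 peak, which lies 99344 bp from the nearest start inside this gene of an RNA-binding splicing regulator. It was open in 27 CD4 and 4 CD8 cells, 6.01 times (2.10 to 23.6) higher in CD4 per 10000 calls, and in 1 of 116 DP and 2 of 175 DN cells. A peak inside Enpp1 with Ccn2 as the gene with the nearest start was open in 35 CD4 and 6 CD8 cells, 5.20 times (2.16 to 15.1) higher. A peak 26923 bp from Smarce1, a subunit of the BAF chromatin remodeler, was open in 27 and 5 cells, and the intronic peak of Rere, a nuclear receptor coregulator, in 25 and 5. A peak 44701 bp from Pcbp1, an RNA-binding protein, was open in 28 and 6 cells. These last 3 peaks were each open in 1 DP cell. The intronic peak of Prkca, protein kinase C alpha, for which Apoh has the nearest start, was open in 27 CD4 and 6 CD8 cells. That of Atf3, a stress-induced transcription factor, was open in 31 and 7. Peaks nearest to Clint1, to Xcl1, a chemokine of cytotoxic cells, to Spry1, an inhibitor of receptor tyrosine kinase signaling, and to Smco4 and Ninj2 were open in 24 to 33 CD4 cells and in 6 to 8 CD8 cells, as were those of Abcb9, Lrwd1 and Aloxe3 in 24 to 26 and in 6 to 7. The 15 peaks were open in 0.862% to 12.9% of DP cells. A single tested peak had no call in CD8 sorted cells. It lies in an intron of Slit3, was open in 20 CD4 cells, 16 in the first and 4 in the second series, at least 5.94-fold higher against 3 counts over the CD8 sort, and was open in 1 DP and 1 DN cell; it was chosen after its values had been seen.

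The second label series was used as a separate set of cells. In the first series alone, 477 of 6929 tested peaks were at least 2-fold higher in CD8 (6.88%) and 506 in CD4 (7.3%). Over the 477 peaks, whose summed ratio of CD8 over CD4 was 2.74 in the cells that chose them, the ratio was 1.23 (1.10 to 1.39) in the second series, from 1106 CD4 and 402 CD8 calls. Over the 506 peaks, the ratio was 0.379 where they were chosen and 0.809 (0.704 to 0.928) in the second series, from 1087 and 259 calls. All 6929 peaks gave 0.970 (0.944 to 0.998) there. Both sets leaned the way in which they were chosen, by less than in the cells that chose them. Peak by peak, 46.1% of the CD8-high peaks were higher in CD8 in the second series, against 40.6% of all tested peaks, and 55.7% of the CD4-high peaks were higher in CD4, against 52.1%. Distal CD8-high peaks had a ratio of 1.48 (1.25 to 1.76) and distal CD4-high peaks one of 0.703 (0.569 to 0.861), against 1.06 (1.01 to 1.12) for all distal peaks. Peaks within 2 kb of a start had ratios of 1.06 (0.900 to 1.24) and 0.919 (0.760 to 1.11), and both intervals hold the value of all such peaks, 0.933 (0.902 to 0.964). Without the 5 cells that stood apart the ratios were 1.18 (1.05 to 1.33) over the CD8-high and 0.795 (0.689 to 0.916) over the CD4-high peaks, against 0.937 (0.911 to 0.965) over all tested peaks. The CD4-high interval then overlapped that of all peaks, which it did not with all cells. The distal ratios were then 1.38 (1.15 to 1.64) and 0.713 (0.576 to 0.877), and that of all distal peaks was 1.02 (0.968 to 1.07).

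Cell by cell, the share of calls in the CD8-high peaks among the calls in both sets was compared. In the second series it ranged from 34.5% to 71.9% with a median of 49.0% over 41 CD4 cells, and from 46.9% to 73.0% with a median of 63.3% over 14 CD8 cells. The groups overlapped. In DP cells the median was 63.9% in the first series and 62.1% in the second, and in DN cells it was 58.6% in each. In the first series, where CD4 and CD8 cells chose the peaks, the medians were 25.3% and 72.7%. The DP medians were close to that of the CD8 cells of the second series. Leaving out the 5 cells left the medians of the second series at 49.0% and 63.3%.

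**Figure D3:**
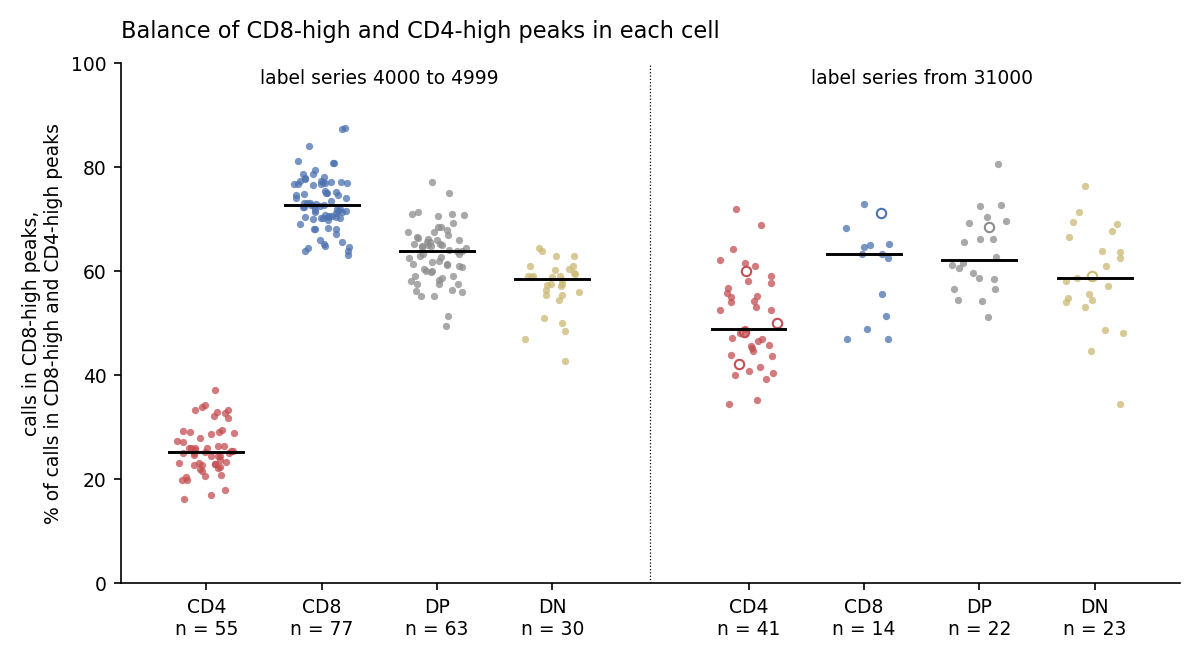
Share of each cell's calls in CD8-high peaks among its calls in CD8-high and CD4-high peaks, in percent, for CD4, CD8, DP and DN sorted cells of the 2 label series; peaks were chosen on the CD4 and CD8 cells at the left, black lines are medians and open circles are the cells that stood apart. In the series at the right CD4 cells center on 49.0%, below CD8 (63.3%), DP (62.1%) and DN cells (58.6%).

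The levels of the called peaks in DP and DN sorted cells differed between the directions, as read in the 63 and 22 DP cells and the 30 and 23 DN cells of the 2 label series. Distal CD8-high peaks, 308 in number, took 201.9 (195.03 to 208.9) of 10000 calls in DP and 147 (141 to 154) in DN cells, against 87.6 in CD4 and 242 in CD8 cells, which chose them. Distal CD4-high peaks, 333 in number, took 91.3 (86.7 to 96.1) in DP and 99.8 (94.6 to 105) in DN cells, against 237 in CD4 and 85.1 in CD8 cells. In DP cells, 176 of the distal CD8-high peaks (57.1%) were nearer to the higher than to the lower sort, but only 55 of the distal CD4-high peaks (16.5%) were. No call at all in DP cells was found at 5 of the distal CD8-high and 36 of the distal CD4-high peaks. At starts the contrast was smaller, with 159 (153 to 165) for CD8-high and 128 (123 to 134) for CD4-high peaks in DP cells. All tested distal peaks together took 1602 of 10000 calls in DP and 1359 in DN cells, fewer than the 1824 in CD4 and 1827 in CD8 cells. Within the first series the DP values were 205 and 92.1 for the distal peaks.

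**Figure D4:**
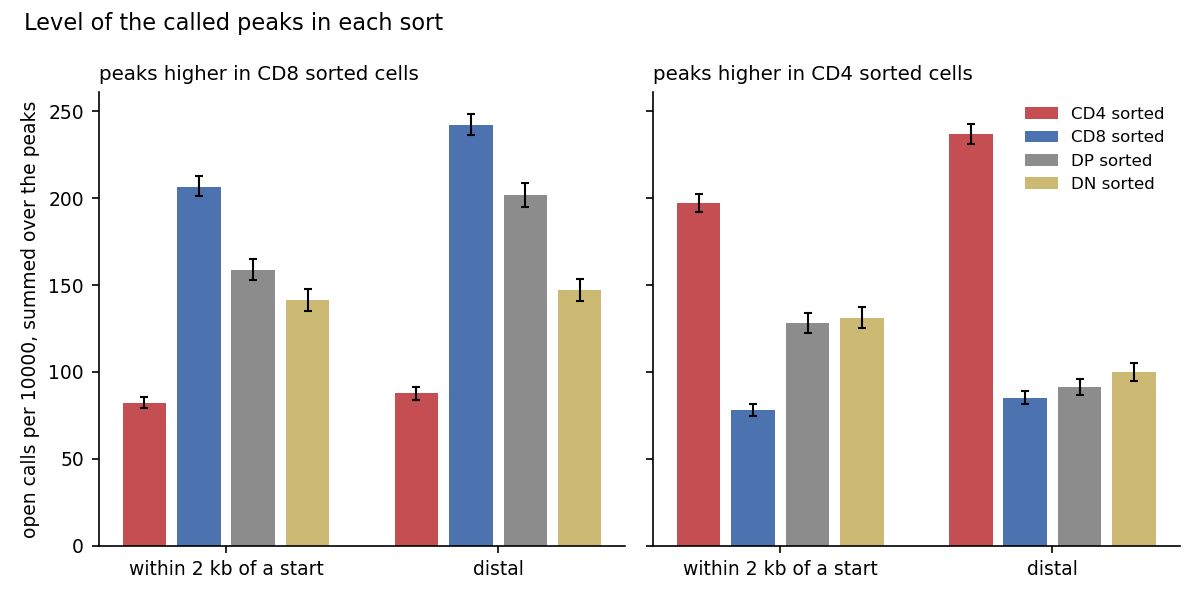
Open calls per 10000 summed over the peaks called higher in CD8 (left) and in CD4 sorted cells (right), split by distance to a transcription start, in the 4 sorts; bars start at 0 and error bars are exact Poisson 95% intervals. In DP cells distal CD8-high peaks reach 201.9, between the CD4 (87.6) and CD8 (242) levels, and distal CD4-high peaks reach 91.3, near the CD8 level of 85.1.

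Open calls were then summed by gene. Of 3193 genes with at least 50 calls, 307 were at least 1.5-fold higher in CD8 (9.61%) and 272 in CD4 sorted cells (8.52%). Of the 26 CD8 lineage genes 10 were tested, of which 4 were higher in CD8 (40.0%) and 0 in CD4, with a median log2 ratio of 0.32 against 0.01 over all genes tested. The 4 were Cd8b1 with a ratio of 3.54 (2.11 to 6.18), Cd8a with 3.03 (1.79 to 5.35), Eomes, a T-box factor of cytotoxic cells, with 2.95 (1.62 to 5.62), and Runx3 with 1.60. Cd8b1, Cd8a and Eomes had 20, 20 and 16 CD4 calls. They reached the minimum of 50 calls largely through their 63, 54 and 42 CD8 calls. The filter thus lets in genes that are high in 1 sort, and the 40.0% is a description only. The Runx3 ratio fell under the fold of 1.5 with peaks counted in the gene body or 5 kb before the start (1.403), with peak centers at least 2000 bp apart (1.299) and narrowly in cells with at least 2000 counts (1.499). In the second series Cd8b1 and Eomes each rested on 3 CD4 and 1 CD8 calls with a ratio of 1.13, Runx3 had 0.971, and Cd8a, with 3 calls in each sort, had 3.40. Itgae, the integrin chain CD103 of CD8 cells, had 10 and 26 calls, below the minimum. Genes of the cytotoxic program had few calls in both sorts, with 8 CD4 and 7 CD8 calls at Gzma, 18 and 15 at Gzmb, 12 and 20 at Prf1 and 2 and 3 at Nkg7, which were not tested. Xcl1, Ifng and Fasl, also on this list, had ratios below 1, at 0.704 (0.454 to 1.08), 0.767 (0.533 to 1.10) and 0.850 (0.676 to 1.07).

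Of the 22 CD4 lineage genes 18 were tested, of which 1 was higher in CD4 and 0 in CD8, with a median log2 ratio of -0.24. That is 5.56% higher in CD4, below the 8.52% of all genes tested. The 1 gene was Icos, a costimulatory receptor, with 84 and 45 calls, 1.66 times (1.14 to 2.44) higher in CD4. Zbtb7b had 28 and 7 calls, below the minimum. Gata3, which acts upstream of Zbtb7b, had a ratio of 0.817 (0.637 to 1.05). Cd4 itself had one of 1.47 (0.855 to 2.55), which turned to 0.771 after thinning and to 0.679 in the second series. The sum over the list was lower in CD8, at 0.890 (0.825 to 0.959), whereas that of the CD8 lineage genes was higher, at 1.22 (1.11 to 1.35). In the second series these sums were 1.18 (0.899 to 1.53) and 0.990 (0.667 to 1.44), on the other side of 1 with intervals that hold it, and 1.15 and 0.999 without the cells that stood apart. Over both series, the CD8 lineage sum of 784 CD4 and 853 CD8 calls includes the 4 genes named above. Cd8b1, Cd8a, Eomes and Runx3 held 20, 20, 16 and 66 of the CD4 and 63, 54, 42 and 94 of the CD8 calls. The sum is therefore not a result apart from theirs.

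Among 38 regulators of lineage choice, 30 were tested, and the summed ratio was 0.974 (0.929 to 1.02), or 1.09 in the second series and 1.02 there without the cells that stood apart. Past the fold in favor of CD8 were 3 (10.0%, against 9.61% of all genes tested), Runx3, which did not pass under the alternatives given above, Bcl11b with a ratio of 1.57 (1.22 to 2.03) and Id3, an inhibitor of E proteins, with 2.35 (1.37 to 4.17). Bcl11b is a zinc finger factor that holds T cell identity. In favor of CD4 was 1 (3.33%, against 8.52% of all genes), the Ikaros family gene Ikzf3, by 2.01 times (1.21 to 3.45). The others lay under 1.5-fold, among them Satb1 with 422 CD4 and 301 CD8 calls and Ets1 with 373 and 318. Of the 3 genes higher in CD8, Id3 had 4 CD4 calls and no CD8 call in the second series. Bcl11b had 18 CD4 and 6 CD8 calls there, with a ratio of 1.13 that is under the fold.

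Genes of the DP stage leaned to the CD8 sort in their summed calls. Of 16 genes 12 were tested, 4 were higher in CD8 (33.3%, against 9.61% of all genes) and 0 in CD4, and the summed ratio was 1.31 (1.17 to 1.48). The 4 were Cd8a, which is also a CD8 lineage gene, Aqp11, Endou and Nfatc3. Aqp11 had a ratio of 2.20 (1.36 to 3.64). Endou had 1.76 (0.991 to 3.21) and Nfatc3 1.51 (0.971 to 2.36), both with intervals that hold 1. Cd8a and Endou had 20 and 21 CD4 calls, and reached the minimum of calls largely through their 54 and 33 CD8 calls. As the filter lets in genes that are high in 1 sort, the 33.3% is a description only. Rag2, a subunit of the recombinase that DP cells use at the T cell receptor alpha locus, had 0 calls in CD4 and 12 in CD8 sorted cells, and 22 in DP cells. The DP sum in the second series was 1.44 (0.926 to 2.19), and 1.47 without the cells that stood apart. The part of DP stage cells or DP stage chromatin in the differences above was not tested.

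Mature thymocyte genes had a summed ratio of 0.981 (0.894 to 1.08), which turned to 1.13 after thinning and to 1.38 (0.997 to 1.88) in the second series, or 1.44 (1.03 to 2.00) there without the cells that stood apart, an interval that leaves out 1. The list had H2-D1 as the 1 of 12 tested genes past the fold. H2-D1 was 1.51 times higher in CD4, with an interval of 0.946 to 2.46 that holds 1, and its ratio of CD8 over CD4 was 1.43 in the second series. DN stage genes had a summed ratio of 1.05 (0.893 to 1.24), with Notch3 as the 1 of 5, higher in CD8. T cell receptor signaling genes had 1.18 (1.09 to 1.27), with Cd247, the zeta chain of the receptor complex, higher in CD8 and the kinase gene Txk higher in CD4 among 17 tested. Past the fold were thus 8.33% of the mature genes in favor of CD4 and 5.88% of the signaling genes in each direction, at or below the 8.52% and 9.61% of all genes, and a single DN stage gene. Genes of B cells, myeloid and dendritic cells, NK, NKT and gamma delta T cells, and erythroid and epithelial cells took at most 7.15 of 10000 calls in either sort, and the ratios were 1.14 (0.872 to 1.499) for myeloid and dendritic, 1.09 (0.880 to 1.35) for NK, NKT and gamma delta, 1.01 (0.569 to 1.77) for erythroid and epithelial genes, and about 1.3 (0.898 to 1.89) for B cell genes. All of these hold 1, although Eomes, past the fold, is also on the NK list. In the second series the ratios of these lists were 1.64, 1.59, 2.55 and 0.679, in that order. Without the cells that stood apart they were 2.44 (0.958 to 6.02), 2.02, 2.11 and 0.705 there. These rest on few calls, and all of their intervals hold 1.

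Finally, consensus letters were counted in the central 300 bases of the peaks. E-box letters, CAGCTG, which E proteins such as those of Tcf3 and Tcf12 bind, were found in 41.6% (36.0 to 47.3) of distal CD8-high peaks and in 18.0% (14.04 to 22.6) of distal CD4-high peaks, against 25.3% (23.8 to 26.9) of all distal peaks tested. Gata letters, AGATAA, went the other way, with 9.09% (6.13 to 12.9) and 19.2% (15.1 to 23.9) against 15.4% (14.1 to 16.7). Runx letters, TGTGGT, were in 48.7% (43.0 to 54.4) and 40.8% (35.5 to 46.3), against 44.6% (42.8 to 46.4). Ets (CCGGAAG), Tcf/Lef (CTTTGAT), Klf (GGGCGTGG), T-box (AGGTGTGA), Rel and Egr (GCGNGGGCG) letters differed by less than their intervals between the directions. The Klf and Egr letters can overlap, and all were read on both strands. Over all 8080 peaks, promoters included, E-box letters were in 18.7%, and in 32.9% (29.1 to 36.9) of CD8-high and 15.2% (12.4 to 18.3) of CD4-high peaks. The median GC content of distal peaks was 51.5% in CD8-high, 48.7% in CD4-high and 50.0% in all distal peaks. Its part in the motif shares was not tested. Of the 15 named peaks in each direction, 6 in CD8 and 3 in CD4 held E-box letters, and 5 in CD8 and 7 in CD4 held Runx letters. No letters of any family were found in 4 of the CD8 and 6 of the CD4 named peaks, Cxcr4, Snrpe, Clint1 and Smarce1 among them. A match is a description of the sequence and not of binding.

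**Figure D5:**
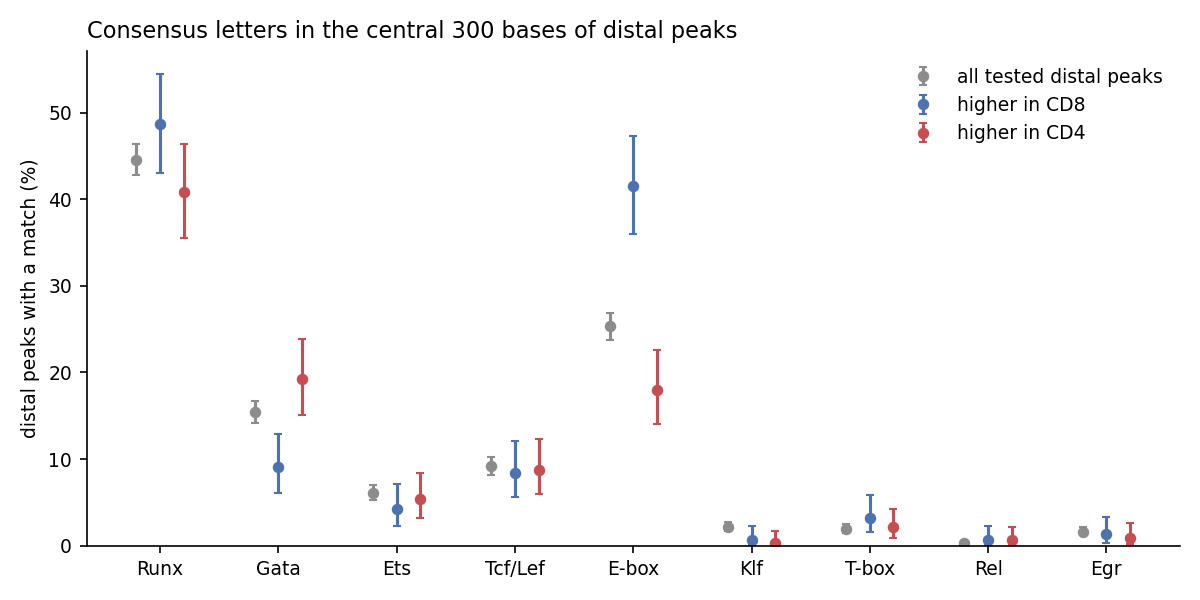
Share of distal peaks with consensus letters of 9 transcription factor families in their central 300 bases, in percent, for all tested distal peaks (gray), CD8-high (blue) and CD4-high peaks (red), with exact binomial 95% intervals over peaks. E-box letters stand out at 41.6% in CD8-high against 18.0% in CD4-high peaks, and Gata letters at 9.09% against 19.2%.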

How the data were processed

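Single cells of the CD4 and CD8 sorts were profiled by scATAC-seq. After adapter trimming and Bowtie2 mapping, the authors discarded duplicate reads (Picard) and merged all cells to call peaks (MACS2). Their deposited table holds raw counts per cell for 138317 peaks of 4000 bp. Tool versions are not given in the sources used here. The build was taken as GRCm38 because 27.9% of peak centers lay within 2000 bp of a protein-coding start, against 9.41% after a shift of all peaks. Of the columns, 1446 were not used here. Counts were limited to 1 per cell and peak. Non-overlapping peaks were taken in order of their counts over the sorted cells, not over all cells as planned. Neighboring peaks 2000 to 4000 bp apart shared 12.2% of cells and those farther apart 11.7%, so counts behaved as if from an interval narrower than listed. Peaks were assigned to the nearest protein-coding start of GENCODE vM21. Named by rule were the called members of the lists, the marker loci, and 15 peaks per direction with at least 30 open cells and the same direction in both series. Other genes (Rag2, Satb1, Ets1, Gata3, Itgae, Xcl1, Ifng, Fasl, Gzma, Gzmb, Prf1, Nkg7) were list members chosen after their values had been seen. Members and lists were chosen with earlier results of these data known. Doublets were not called. Intervals for ratios are conditional binomial intervals (scipy 1.17.1, numpy 2.4.6, pandas 2.3.3, Python 3.11.15). Scripts were tested on simulated data.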

Additional observations from a re-analysis of the deposited data

How the results depend on the processing

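Values are given for CD8-high before CD4-high, and ratios are CD8 over CD4. Each sort is 1 sample, so no alternative carries a test. The label series from 31000 alone, with far fewer cells, left 1 and 0 called peaks of 23 tested and 2 and 2 called genes of 12. Its ratios were 1.18 for CD4 lineage genes, 0.990 for CD8 lineage genes, 0.971 for Runx3, 1.09 for lineage choice regulators, 1.38 for mature thymocyte genes and 0.679 for Cd4. These all lay on the other side of 1 from the values reported. For Cd8b1 the ratio was 1.13. The cause of these changes was not tested. Thinning each cell to 1000 counts left only 271 peaks and 112 genes to test, and gave 8 and 25 peaks and 15 and 13 genes. Its ratios were 1.67 for DP stage, 1.33 for T cell receptor signal genes and 4.32 for Runx3, with 1.13 for mature genes and 0.771 for Cd4 on the other side of 1. Summing raw counts gave 1029 and 1089 of 9712 tested peaks and 534 and 547 of 4147 genes, and the mean over cells 907 CD8-high peaks of 8080. Without the 5% of cells with the most open peaks there were 396 CD4-high peaks of 6551. A minimum of 10 open cells gave 2097 and 2444 of 16394 peaks, one of 40 gave 45 and 22 of 2207, and a fold of 1.5 gave 1345 and 1408 of 8080. For genes, a fold of 2 gave 75 and 46 of 3193, a minimum of 20 calls 1206 and 1267 of 8167, and one of 100 calls 53 and 39 of 893. Counting peaks in the gene body or 5 kb before the start gave ratios of 0.965 for CD4 lineage, 1.61 for DP stage and 1.08 for T cell receptor signal genes. E-box letters in the central 600 bases, scaled to the share in all tested peaks, were in 26.4% of CD8-high peaks. The choice of peaks with centers at least 2000 bp apart and that without the cells that stood apart were added after the data had been seen. Depth limits what single peaks can show. No paired analysis was possible because each sort is 1 sample and carries no replicate number.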

Other observations

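Several genes had more than 1 called distal peak in the same direction, a pattern chosen after the values had been seen. Higher in CD4 sorted cells were 4 of 5 tested peaks of Prkcq, protein kinase C theta of the T cell receptor pathway, and 4 of 7 of Zfp281. Higher in CD8 sorted cells were 3 of 4 of Chrna9 and 3 of 3 of Lekr1. Of all tested peaks 7.49% were called higher in CD4 and 7.07% in CD8, and these genes were picked as the extremes.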
